A study of Mus musculus with 12 samples.

Results

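Immediate early genes are switched on within minutes when a cell is stimulated or stressed, because the factors that activate them are already present and need no new protein. Their products include the Jun and Fos proteins, which pair to form the transcription factor AP-1, and the proteins that later shut the response down, such as phosphatases and mRNA decay factors. Enzymatic release of cells from a tissue is known to induce the same genes, so that their level in isolated cells can carry a trace of the isolation itself.

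10 such genes were taken by symbol from the 17536 genes of the Runx3 RNA-seq of mouse articular chondrocytes, namely Fos, Fosb, Jun, Junb, Egr1, Atf3, Ier2, Ier3, Dusp1 and Zfp36. Libraries were made from superficial zone (SFZ) and deep zone (DZ) cells of 5-day-old mice, with 3 libraries for each of R3-Cntl SFZ, R3-cKO SFZ, R3-Cntl DZ and R3-cKO DZ. R3-Cntl mice were Runx3 fl/fl and R3-cKO mice were Col2a1-Cre; Runx3 fl/fl littermates, so the floxed Runx3 alleles were carried by all groups and the Cre, driven by the collagen II promoter of chondrocytes, by R3-cKO mice alone. SFZ cells were released by trypsin and then collagenase from the ends of femur and tibia, and DZ cells by a longer collagenase digestion of the cartilage that was left. Zone and enzyme treatment therefore cannot be told apart. The study's methods state that isolated cells were plated and grown as monolayers, and the time in culture before RNA was taken is not given in the sources used here. No library of undissociated cartilage was analysed, so levels could be compared between libraries, zones and genotypes, but not with cells that had never been digested.

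Values are FPKM (fragments counted on a gene, divided by its length and by the size of the library), inferred from their behaviour, scaled between libraries by the authors. As FPKM they would correct for transcript length, and the comparisons of level between genes below rest on that reading of the unit. The depth behind each value is unknown, since read counts were not used here. Runx3 itself was at 5.98 to 10.7 FPKM in R3-Cntl SFZ, 3.42 to 11.8 in the SFZ libraries labelled R3-cKO, 7.66 to 12.7 in R3-Cntl DZ and 8.14 to 15.9 in the DZ libraries labelled R3-cKO, and its log2 difference between genotypes was -0.04 in SFZ and 0.13 in DZ (exact two-sided permutation p = 1.0 and 0.6, n = 3 and 3). These values cover the whole gene and do not resolve its floxed part, so they do not check the deletion. R3-cKO below means the libraries labelled R3-cKO. The summed level of 7 chondrocyte markers was 4670 to 13470 FPKM in the SFZ libraries and 14850 to 32700 in the DZ libraries, and that of 6 superficial zone markers 185.7 to 1086 and 3.26 to 16.7 FPKM. 7 macrophage markers summed to 3.88 to 56.3 FPKM in SFZ and at most 7.29 in DZ, 6 skeletal muscle markers to 115.7 FPKM in R3-Cntl SFZ library 2 and at most 19.3 elsewhere, and endothelial, erythroid and keratinocyte markers to at most 6.66 FPKM in any library.

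Many immediate early genes are activated by serum response factor (SRF), which binds a sequence called the CArG box, while the cyclic AMP response factors and AP-1 bind the related sequences TGACGTCA and TGANTCA, and ATF4, the transcription factor of the integrated stress response, binds TGATGNAA together with C/EBP proteins. The 400 bases upstream of the gene start were read from the mm9 genome with GENCODE gene models for 8 of the 10 genes and searched on both strands. Egr1 and Ier2 were not searched. Fos lies on chr12:86814840-86818223 (plus strand), Fosb on chr7:19888070-19895394, Zfp36 on chr7:29161803-29164274, Jun on chr4:94715725-94718913, Junb on chr8:87500811-87502617, Dusp1 on chr17:26642535-26645464 and Atf3 on chr1:192994175-193007219 (all minus strand), and Ier3 on chr17:35958629-35959868 (plus strand). A CArG box was found upstream of 3 of the 8 genes, Fos, Fosb and Zfp36, against 2.24% of 22380 protein-coding genes. TGACGTCA was found upstream of Dusp1 (2.1% of all genes) and TGATGNAA upstream of Atf3 (5.04%), whereas TGANTCA was found upstream of 0 of the 8 (9.5%). The 5 stretches of 120 bases that hold these matches are given 5′ to 3′ on the strand of the gene, with the match in capitals, because the same genes are compared across libraries below. A match is a description of the letters and not a measured binding site.
Fos, CArG box 309 to 300 bases upstream, chr12:86814476-86814595, plus strand: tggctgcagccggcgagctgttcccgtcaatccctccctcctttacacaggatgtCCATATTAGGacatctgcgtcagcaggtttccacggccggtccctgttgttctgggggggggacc
Fosb, CArG box 272 to 263 bases upstream, chr7:19895602-19895721, minus strand: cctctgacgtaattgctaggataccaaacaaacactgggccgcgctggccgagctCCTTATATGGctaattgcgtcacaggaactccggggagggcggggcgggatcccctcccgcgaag
Zfp36, CArG box 31 to 22 bases upstream, chr7:29164275-29164394, minus strand: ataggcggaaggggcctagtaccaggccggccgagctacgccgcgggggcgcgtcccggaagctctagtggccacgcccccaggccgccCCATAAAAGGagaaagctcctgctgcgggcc
Dusp1, TGACGTCA 96 to 89 bases upstream, chr17:26645497-26645616, minus strand: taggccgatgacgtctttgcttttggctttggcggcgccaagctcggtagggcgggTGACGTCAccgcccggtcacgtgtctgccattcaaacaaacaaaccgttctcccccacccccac
Atf3, TGATGNAA on the opposite strand 103 to 96 bases upstream, chr1:193007259-193007378, minus strand: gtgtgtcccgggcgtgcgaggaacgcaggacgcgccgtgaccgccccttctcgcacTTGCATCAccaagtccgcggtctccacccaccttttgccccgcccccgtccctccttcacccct

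9 of the 10 genes were expressed at a readable level and Fosb was not. By mean FPKM over the 12 libraries the order was Egr1 (34.2), Dusp1 (28.9), Ier3 (23.9), Ier2 (20.7), Jun (18.1), Junb (15.4), Zfp36 (12.7), Atf3 (11.4), Fos (4.04) and Fosb (0.421). Neighbours at the top of this order did not differ beyond their spread, since Egr1 exceeded Dusp1 in 7 of 12 libraries, Dusp1 exceeded Ier3 in 5 and Ier3 exceeded Ier2 in 7. Ier2 exceeded Jun, Jun exceeded Junb, Junb exceeded Zfp36 and Atf3 exceeded Fos in 10 of 12 libraries each, Zfp36 exceeded Atf3 in 7, and Fos exceeded Fosb in all 12. Fosb, at 0.24 to 0.95 FPKM, was below the filter of 1 FPKM in 3 libraries and was not tested in the main fit of any comparison.

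**Figure D1:**
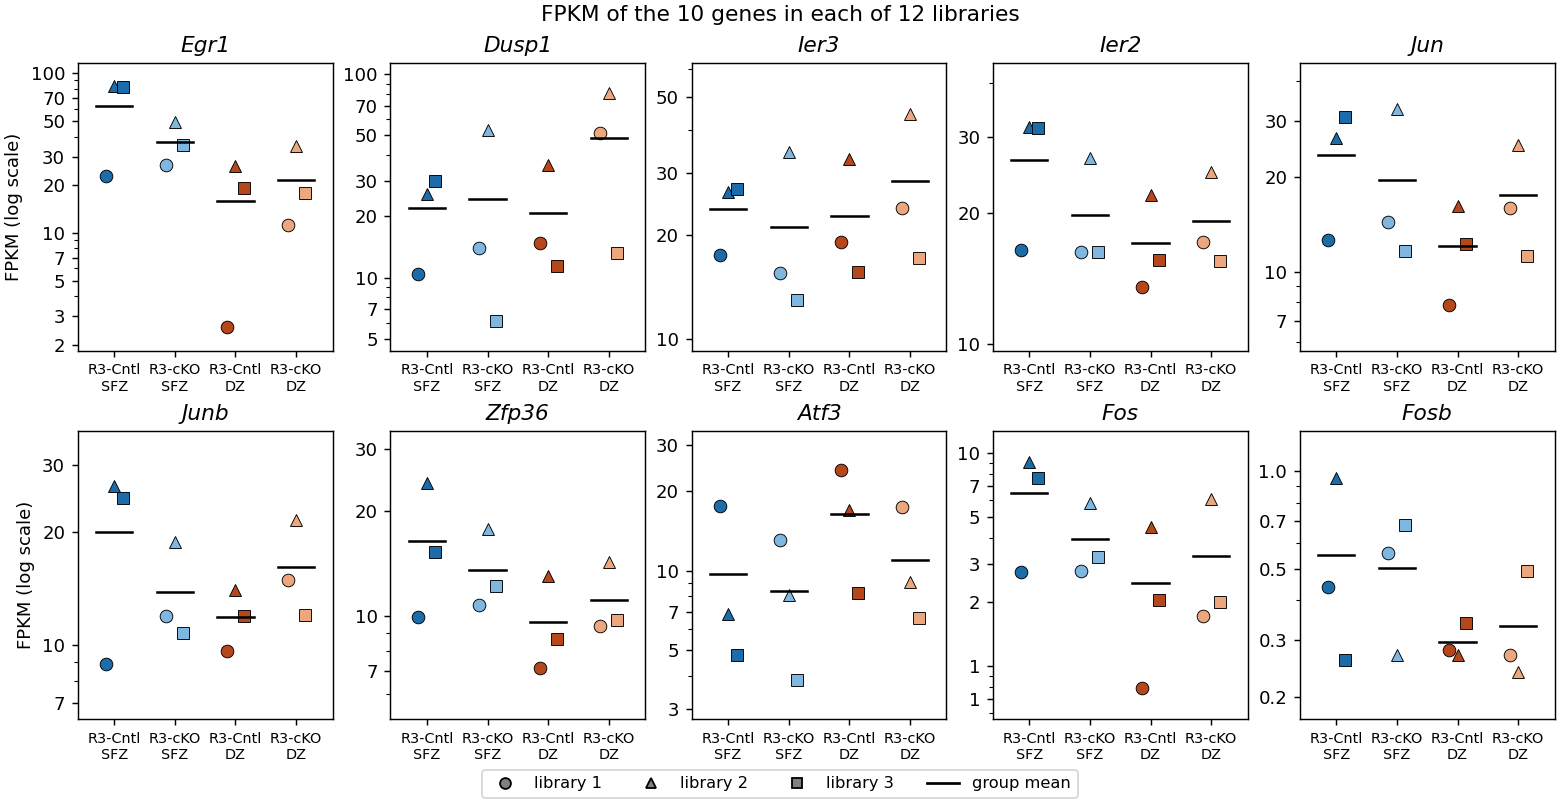
FPKM on log axes (each panel with its own range) for each of the 10 genes, with circles, triangles and squares for libraries 1, 2 and 3 of each group and bars at the group means. Groups overlap in every panel, library 2 is mostly the highest of its group, and Atf3 is highest in library 1 of all 4 groups.

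Jun, the founding AP-1 subunit, was at 12.6, 26.5 and 31.0 FPKM in libraries 1, 2 and 3 of R3-Cntl SFZ, and at 14.4, 32.7 and 11.6 in those of R3-cKO SFZ. In DZ it was at 7.88, 16.1 and 12.3 FPKM for R3-Cntl and 15.9, 25.2 and 11.2 for R3-cKO. The 2 high R3-Cntl SFZ libraries and the library 2 values of both R3-cKO groups stood above the rest, and all 4 groups overlapped. Junb, a subunit that restrains Jun in many settings, was at 8.87, 26.4 and 24.6 FPKM in R3-Cntl SFZ and 11.9, 18.7 and 10.7 in R3-cKO SFZ. Its DZ values were 9.63, 13.9 and 11.9 FPKM for R3-Cntl and 14.8, 21.5 and 12.0 for R3-cKO. R3-Cntl SFZ library 1 held the lowest Junb value of all 12 libraries and R3-Cntl SFZ library 2 the highest, so the whole range of Junb, 2.98-fold, lay inside 1 group.

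Fos, the partner of Jun and the gene most often used as a sign of recent stimulation, was at 2.77, 9.03 and 7.63 FPKM in R3-Cntl SFZ and 2.80, 5.83 and 3.26 in R3-cKO SFZ. In DZ it was at 0.79, 4.51 and 2.04 FPKM for R3-Cntl and 1.72, 6.09 and 1.99 for R3-cKO. Library 2 was the highest and library 1 the lowest in each of the 4 groups. Fosb, a close relative of Fos, was at 0.44, 0.95 and 0.26 FPKM in R3-Cntl SFZ, 0.56, 0.27 and 0.68 in R3-cKO SFZ, 0.28, 0.27 and 0.34 in R3-Cntl DZ and 0.27, 0.24 and 0.49 in R3-cKO DZ. It did not follow Fos from library to library (Pearson r = 0.211 over 12 libraries that share their preparation and scaling, without a test).

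Among the 3 Jun genes Jund, at 38.4 to 74.7 FPKM, made up 40.9 to 79.5% of the summed FPKM of a library (median 66.7%), Jun 9.24 to 33.3% and Junb 11.3 to 27.5%. Among the 4 Fos genes Fosl2, at 9.90 to 35.9 FPKM, made up 54.9 to 89.6% (median 84.2%), Fos 6.22 to 18.4%, Fosb 0.46 to 2.52% and Fosl1 0.52 to 31.0%. Fosl1 had the widest range of the family, from 0.11 FPKM in R3-cKO DZ library 3 to 17.3 in R3-Cntl SFZ library 3.

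**Figure D2:**
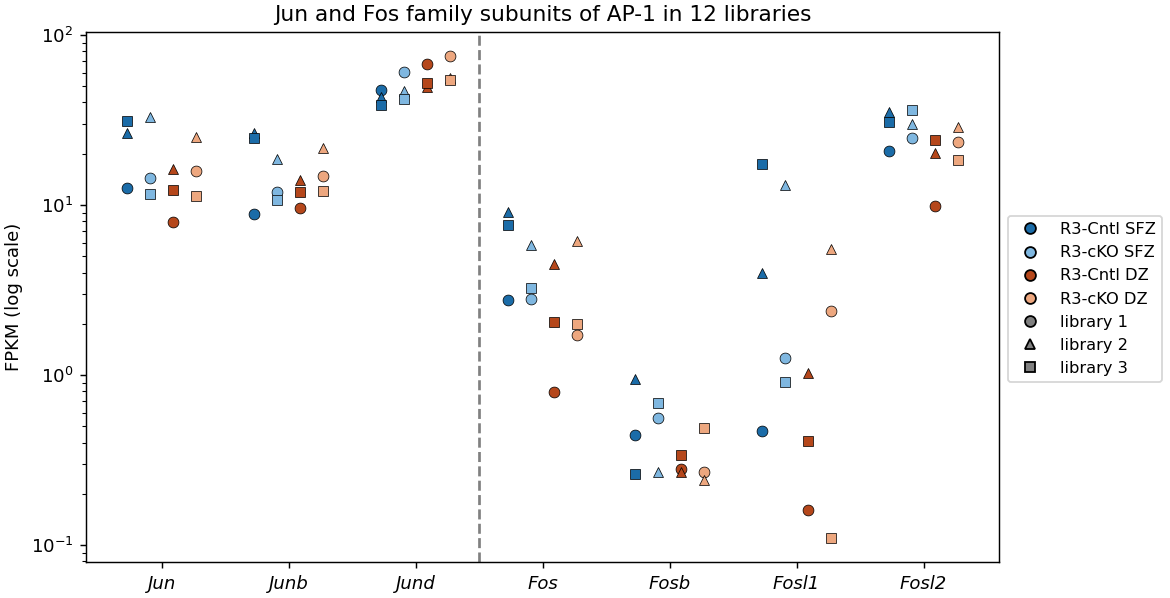
FPKM on a log axis of the 3 Jun and 4 Fos family genes in each of the 12 libraries, coloured by group and with 1 symbol for each library number. Jund is the highest Jun gene and Fosl2 the highest Fos gene in every library, Fos spans 0.79 to 9.03 FPKM, and Fosb stays below 1 FPKM.

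Egr1, a zinc finger transcription factor induced through SRF, had the widest range of the 10 genes, 32.2-fold. It was at 22.6, 82.5 and 82.2 FPKM in R3-Cntl SFZ and 26.5, 49.4 and 35.4 in R3-cKO SFZ. In DZ it was at 2.56, 26.0 and 19.2 FPKM for R3-Cntl and 11.2, 35.0 and 17.7 for R3-cKO. Library 1 was the lowest of each group, and only the 2 high R3-Cntl SFZ libraries and 2 of the R3-cKO SFZ libraries stood above every DZ library. Atf3, a stress-induced factor of the ATF family, followed another order, at 17.5, 6.84 and 4.79 FPKM in R3-Cntl SFZ, 13.1, 8.11 and 3.84 in R3-cKO SFZ, 24.1, 17.0 and 8.23 in R3-Cntl DZ and 17.4, 9.03 and 6.64 in R3-cKO DZ. Library 1 was the highest and library 3 the lowest in every group.

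Ier2, a nuclear protein of the immediate early response, varied least of the tested genes, 2.34-fold over all libraries. It was at 16.5, 31.7 and 31.4 FPKM in R3-Cntl SFZ, 16.3, 26.8 and 16.3 in R3-cKO SFZ, 13.5, 22.0 and 15.6 in R3-Cntl DZ and 17.2, 24.9 and 15.5 in R3-cKO DZ. Ier3, which acts in cell survival, was at 17.5, 26.6 and 27.0 FPKM in R3-Cntl SFZ, 15.5, 34.6 and 12.9 in R3-cKO SFZ, 19.0, 33.1 and 15.6 in R3-Cntl DZ and 23.8, 44.6 and 17.1 in R3-cKO DZ. Library 2 held the highest value of both genes in each group except for Ier3 in R3-Cntl SFZ, where libraries 2 and 3 were nearly level.

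Dusp1 and Zfp36 encode inhibitors of the response. Dusp1, a phosphatase that inactivates MAP kinases, was at 10.5, 25.7 and 29.8 FPKM in R3-Cntl SFZ, 13.9, 53.4 and 6.11 in R3-cKO SFZ, 14.9, 35.8 and 11.4 in R3-Cntl DZ and 51.2, 81.1 and 13.2 in R3-cKO DZ. 2 of the 3 R3-cKO DZ libraries and R3-cKO SFZ library 2 were the highest, and R3-cKO SFZ library 3 was the lowest of all 12. Zfp36, which binds AU-rich mRNAs and promotes their decay, was at 9.94, 24.1 and 15.2 FPKM in R3-Cntl SFZ, 10.8, 17.8 and 12.2 in R3-cKO SFZ, 7.15, 13.1 and 8.65 in R3-Cntl DZ and 9.39, 14.3 and 9.76 in R3-cKO DZ. Like Fos, Zfp36 was lowest in library 1 and highest in library 2 of every group.

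The genes varied far more between libraries of 1 group than most genes did. The median within-group SD of log2(FPKM + 1) was 0.618 for the 9 tested genes and 0.22 for all 11765 genes that reached 1 FPKM in 3 or more libraries, and the median ratio of the highest to the lowest library of a group was 2.54 against 1.37. Dusp1 (SD 1.14) and Egr1 (1.05) had a wider spread than 98.8 and 98.3% of the tested genes, Atf3 (0.762) than 95.1%, Fos (0.71) than 94.1%, Jun (0.618) than 91.7% and Ier3 (0.589) than 90.8%. Junb (0.515), Zfp36 (0.429) and Ier2 (0.407) exceeded 87.8, 82.5 and 80.7%. Of the sum of squares over the 12 libraries, the 4 group means took up a median of 27.1% in these genes and 35.3% in all genes, from 9.96% for Ier3 to 47.4% for Egr1. Fitting 4 means to 12 libraries takes up a sizeable share even without any group difference, and the values are not corrected for it.

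Library 2 was the highest of its group for most of the genes, whereas the lowest was mostly library 1 in R3-Cntl and library 3 in R3-cKO. Library 2 was the highest for 8 of 9 genes in R3-cKO SFZ, R3-Cntl DZ and R3-cKO DZ, where 41.7, 42.7 and 44.6% of all tested genes were highest in that library. In R3-Cntl SFZ it was the highest for 5 of 9 (32.3% of all genes), and library 3 for Jun, Ier3 and Dusp1. The mean deviation of the 9 genes from their group means was 0.346, 0.625, 0.57 and 0.566 on the log2(FPKM + 1) scale in library 2 of R3-Cntl SFZ, R3-cKO SFZ, R3-Cntl DZ and R3-cKO DZ, against a median of 0.02, 0.01, 0.06 and 0.04 over all genes. The lowest mean deviations were -0.586 in R3-Cntl SFZ library 1, -0.454 in R3-cKO SFZ library 3, -0.424 in R3-Cntl DZ library 1 and -0.488 in R3-cKO DZ library 3. In R3-Cntl SFZ library 3 lay above its group mean, by 0.24. The labels do not say what a number stands for, and its part in these differences was not tested.

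**Figure D3:**
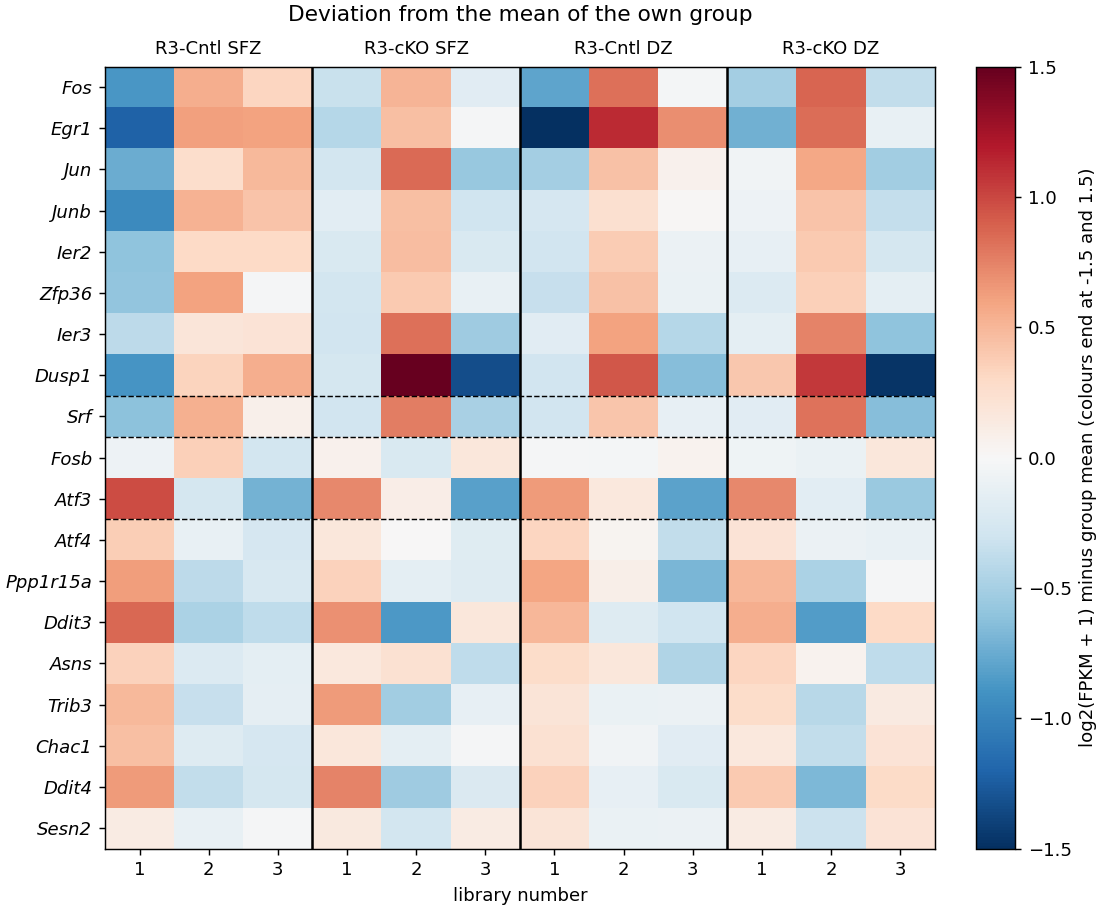
Colours give log2(FPKM + 1) minus the mean of the own group for each library (columns, 3 per group) and gene (rows), with 8 of the 10 genes at the top, then Srf, then Fosb and Atf3, then 8 genes of the integrated stress response. The top rows are red in library 2 of each group, and Atf3 and the rows below it are red in library 1.

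Chondrocyte markers moved the other way in most groups. The summed level of the 7 markers was lowest in library 2 of R3-Cntl SFZ (4670 FPKM against 13470 and 8964 in libraries 1 and 3), of R3-Cntl DZ (20360 against 32700 and 26730) and of R3-cKO DZ (14850 against 22060 and 26380), while in R3-cKO SFZ library 3 was the lowest (5277 against 11850 and 7119). All 7 were detected at 1 FPKM or more in every library. The macrophage marker sum was 56.3, 46.7 and 3.88 FPKM in libraries 1, 2 and 3 of R3-Cntl SFZ and 47.9, 6.96 and 23.0 in R3-cKO SFZ, an order that differed from that of Fos and Egr1 in both groups. The skeletal muscle marker sum was highest in library 2 of every group, as Fos was, at 7.47, 115.7 and 7.45 FPKM in libraries 1, 2 and 3 of R3-Cntl SFZ, 5.45, 12.5 and 5.52 in R3-cKO SFZ, 10.2, 12.4 and 6.03 in R3-Cntl DZ and 11.4, 19.3 and 5.34 in R3-cKO DZ. Of its 6 genes, the actin gene Acta1 was highest in library 2 of every group (3.54 to 38.0 FPKM there, 0.65 to 6.54 elsewhere) and had r = 0.721 with Fos. Tnnt3, at 2.0 to 17.0 FPKM, had r = 0.343 with Fos, and Mylpf, at 0.54 to 40.2 FPKM, r = 0.44. Of the defining muscle genes, Myog was at 9.36 FPKM, Myh3 at 10.6 and Ckm at 0.49 in R3-Cntl SFZ library 2, and outside that library Myog was at most at 0.3, Myh3 at 0.47 and Ckm at 0.05. The part of these 3 sets of markers in the levels of the immediate early genes was not tested. In these bulk samples, more RNA per cell and more cells of a type cannot be told apart.

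The 8 genes other than Fosb and Atf3 varied together across libraries, as a description without a test. Over the 12 libraries their 28 pairwise Pearson correlations of log2(FPKM + 1) were 0.226 to 0.948 with a median of 0.815, and once each group was centred on its mean they were 0.451 to 0.961 with a median of 0.855. Fos was most like Ier2 (r = 0.948) and Zfp36 (0.947), and Ier3 most like Dusp1 (0.937), whereas Egr1 and Dusp1 were the least alike (0.226). The correlations of Atf3 with the same 8 genes were -0.711 (Egr1) to 0.143 (Dusp1), with a median of -0.435. All these values share libraries and scaling. Since these genes moved together, counts of them in 1 direction or library, above and below, are not counts of separate observations.

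Of 8286 other genes with 5 FPKM or more on average, the pattern most like the mean of the 10 standardised genes was that of Srf, the gene of serum response factor (r = 0.972 over 12 libraries). Srf was at 9.36, 21.8 and 15.7 FPKM in R3-Cntl SFZ, 9.42, 20.5 and 8.07 in R3-cKO SFZ, 6.77, 11.7 and 7.70 in R3-Cntl DZ and 10.2, 21.1 and 7.15 in R3-cKO DZ. Library 2 was the highest of each group. It was followed by Nelfa (0.958), Tmsb10 (0.957), Nup98 (0.955), Memo1 (0.949), Ywhab (0.947), Tmed5 (0.945), Ipo11 (0.943), Pelp1 (0.942) and Usp4 (0.942), whose ranges were as narrow as 12.5 to 17.3 FPKM for Nelfa and as wide as 275.1 to 704.3 for Tmsb10.

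For the single genes, patterns among the most alike were Rngtt (0.978), Zdhhc5 and Baz1b for Fos, Cdca4 (0.984), Lrrfip1 and 4930503L19Rik for Jun, and Tmsb10 (0.926) and Ppp2r2a for Junb. Egr1 was most like Wisp2 (0.978) and Nfic, and Atf3 most like Slc6a9 (0.973), Crls1 and Avil. Ier2 was most like Npat (0.966), Tmsb10 and Topors, Ier3 most like Prmt1 (0.977), Psmd14 and Klhdc4, Dusp1 most like Anxa3 (0.968), Dlc1 and Pmpca, and Zfp36 most like Rngtt (0.956), Usp4 and Zdhhc5. For Fosb, which is near the floor, they were the interferon-induced genes Bst2 (0.902), Ifi35 and Stat2.

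Atf3 varied with the integrated stress response, the programme of the factor Atf4 that follows amino acid shortage and endoplasmic reticulum stress. 7 of 8 listed genes of that response had r above 0.5 with Atf3, among them Atf4 itself (0.95), asparagine synthetase Asns (0.914) and the phosphatase subunit Ppp1r15a (0.878), and 0 of 8 did so with Fos. For comparison, 14.6% of 11359 genes with 1 FPKM or more on average had r above 0.5 with Atf3 and 36.6% with Fos. Atf4 was at 465.1, 334.1 and 303.5 FPKM in R3-Cntl SFZ, 417.4, 373.4 and 328.4 in R3-cKO SFZ, 560.1, 460.0 and 345.0 in R3-Cntl DZ and 481.4, 392.3 and 385.9 in R3-cKO DZ, highest in library 1 and lowest in library 3 of each group as Atf3 was. 6 of 7 chondrocyte markers also had r above 0.5 with Atf3, and 0 of 7 with Fos. 6 of 8 ERK feedback genes, 8 of 13 heat shock genes, 5 of 7 NF-kB response genes and 14 of 30 other immediate early genes had r above 0.5 with Fos, and 0, 2, 0 and 4 with Atf3, Ppp1r15a being in the lists of both the stress response and the other immediate early genes. Of 6 superficial zone markers, 4 had r above 0.5 with Fos and 0 with Atf3.

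**Figure D4:**
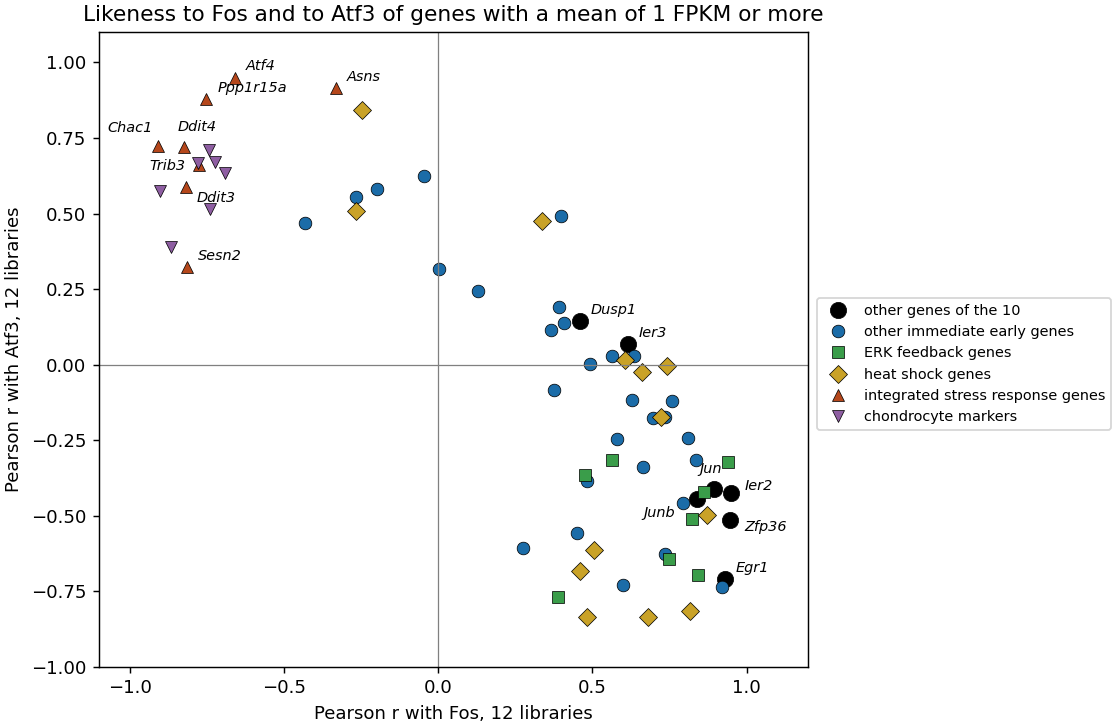
Each point is a gene with a mean of 1 FPKM or more, placed by its Pearson correlation over 12 libraries with Fos (horizontal axis) and with Atf3 (vertical axis) and coloured by list. Genes of the integrated stress response and chondrocyte markers lie at the upper left, and the ERK feedback genes and 7 more of the 10 immediate early genes to the right, with Dusp1 and Ier3 nearest to 0 on the vertical axis.

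Zones were compared first over both genotypes, with 6 libraries of each zone and genotype as a term. None of the 9 tested genes passed an adjusted p of 0.05 (limma, Benjamini-Hochberg adjustment over 11765 genes), while 23.2% of all tested genes did, 4.3% higher and 18.9% lower in DZ. That split depended on the scaling between libraries: 506 higher and 2219 lower genes became 1237 and 915 after quantile and 1053 and 1088 after size-factor scaling, as the median log2 difference of all genes moved from -0.14 to 0.03 and 0.0025. Each of the 9 genes kept its direction under both scalings. 1 of the 9, Egr1, had an unadjusted p under 0.05 (37.1% of all genes), and with a library left out 1 to 3 did (30.1 to 38.9% of all genes), Fos and Zfp36 joining it without library 2 of either DZ group or library 1 of R3-Cntl SFZ, and Zfp36 without library 1 of R3-cKO SFZ. The zones overlapped in all 10 genes (11.3% of all genes did not overlap). 6 genes had a lower and 3 a higher mean in DZ (72% of all genes were lower), with a median log2 difference of -0.30 against -0.14 over all genes. With the replicate number as a block, 4 of the 9 passed, as did 3965 of 11765 genes. Egr1, Fos and Zfp36 were lower and Atf3 higher in DZ, with limma adjusted p from 0.00767 to 0.0233. The numbers pair the zones in R3-cKO but not in R3-Cntl. In R3-cKO, same-number ratios of DZ to SFZ were below 1 for Egr1 and Zfp36 and above 1 for Atf3, while those of Fos went both ways.

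Egr1 had the largest zone difference of the 9. Its log2(FPKM + 1) was lower in DZ by 1.50 (difference -1.50, SE 0.54, 95% interval -2.70 to -0.31, limma adjusted p = 0.0670, exact two-sided permutation of zone within genotype p = 0.03, of which the smallest possible is 0.005). Without R3-cKO DZ library 2 the difference was -1.76 and the limma adjusted p 0.0407, and over all single libraries left out it ran from -1.76 to -1.03, the latter without R3-Cntl DZ library 1, and the adjusted p from 0.0407 to 0.152. Fos differed by -0.73 (SE 0.37, interval -1.54 to 0.08) and Zfp36 by -0.46 (SE 0.22, interval -0.95 to 0.02), with limma adjusted p = 0.174 and 0.151. Atf3 was higher in DZ by 0.58 (SE 0.38, interval -0.24 to 1.41, limma adjusted p = 0.286). The intervals of Jun (-0.47, -1.18 to 0.24), Ier2 (-0.30, -0.78 to 0.17), Junb (-0.19, -0.80 to 0.43), Ier3 (0.16, -0.50 to 0.82) and Dusp1 (0.50, -0.78 to 1.79) held 0 as well, and differences within these bounds were not excluded. Chondrocyte markers were higher and superficial zone and macrophage markers lower in DZ in the same libraries (7 of 7, 5 of 6 and 6 of 6 tested past the adjusted threshold, 6, 5 and 3 after quantile and 7, 5 and 4 after size-factor scaling), and their part in the zone differences of these genes was not tested. Within DZ, only 4 of the superficial zone and 1 of the macrophage markers reached the filter. The others entered the test with their SFZ values alone.

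In R3-Cntl mice alone, with 3 libraries per zone, 0 of 9 genes passed (limma adjusted p under 0.05) against 1.24% of 11336 genes, and 1 of 9, Egr1, had an unadjusted p under 0.05 against 27.4%. That count rested on single libraries and ran from 0 to 7 with a library left out (13.5 to 29.5% of all genes). Without R3-Cntl SFZ library 1 it was 7, with Egr1, Fos, Jun, Junb, Ier2 and Zfp36 lower and Atf3 higher in DZ, against 29.5% of all genes, and without R3-Cntl DZ library 2 it was 4 (Egr1, Fos, Jun and Zfp36, all lower). Without any other library it was 0. 8 of 9 had a lower mean in DZ (72% of all genes), although Dusp1 and Ier3 turned to higher after quantile or size-factor scaling, which moved the median of all genes from -0.17 to 0.05 and 0.01. Egr1 differed by -2.13 (SE 0.85, interval -4.17 to -0.09, limma adjusted p = 0.169), Fos by -1.15 (SE 0.51, adjusted p = 0.197), Jun by -0.86 (SE 0.37, adjusted p = 0.194) and Zfp36 by -0.67 (SE 0.34, adjusted p = 0.234). With a library left out these ran from -2.74 to -1.23 for Egr1, -1.58 to -0.75 for Fos, -1.23 to -0.60 for Jun and -0.96 to -0.37 for Zfp36, each farthest from 0 without R3-Cntl SFZ library 1 and nearest without R3-Cntl DZ library 1, or R3-Cntl SFZ library 2 for Zfp36. The differences of Junb (-0.59), Ier2 (-0.58), Dusp1 (-0.13) and Ier3 (-0.11) were smaller, and Atf3 was higher by 0.77 (SE 0.52). Without R3-Cntl SFZ library 1, Junb differed by -1.06 with a limma adjusted p of 0.0382 (up to 0.721 with another library left out), the only call that leaving out a library made here. The zones overlapped in all 10 genes (32.4% of all genes did not), and an exact permutation test of 3 against 3 libraries cannot give a p below 0.1. With the replicate number as a block, Egr1 and Fos passed (limma adjusted p = 0.0287 and 0.0349), as did 831 of all genes, although the numbers do not pair these groups.

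In R3-cKO mice 0 of 9 passed as well, against 0.0176% of 11336 genes, with 0 of 9 at an unadjusted p under 0.05 against 14.1%. With the replicate number as a block, which pairs these groups, 352 of all genes passed in place of 2, and 0 of the 9. At an unadjusted p under 0.05 that paired fit gave 6 of 9 (30% of all genes), Egr1 and Zfp36 lower and Dusp1, Ier3, Atf3 and Junb higher in DZ, with limma adjusted p from 0.0568 for Egr1 to 0.156 for Junb. In the fit without the block, Egr1 and Fos were at an unadjusted p under 0.05 without R3-cKO DZ library 2, and 0 of 9 without any other library. 4 genes were higher and 5 were lower in DZ (65.4% of all genes were lower), although Jun and Ier2 turned to higher after quantile and after size-factor scaling, which moved the median of all genes from -0.09 to 0.04 and 0.03. Ratios of DZ to SFZ within the same library number were 0.424, 0.708 and 0.499 for Egr1 and 0.871, 0.802 and 0.80 for Zfp36, below 1 for each number. Ratios were above 1 for each number in Dusp1 (3.68, 1.52 and 2.16), Ier3 (1.53, 1.29 and 1.32), Junb (1.24, 1.15 and 1.12) and Atf3 (1.33, 1.11 and 1.73), while Fos (0.614, 1.04 and 0.61), Jun (1.11, 0.771 and 0.968) and Ier2 (1.05, 0.93 and 0.953) went both ways. The log2 difference was -0.87 (SE 0.42) for Egr1 and 1.13 (SE 0.92) for Dusp1, with limma adjusted p = 0.418 and 0.645. The zones overlapped in all 10 genes (21% of all genes did not).

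Genotypes were compared within each zone, the comparison the study was built for. In SFZ none of the 9 genes passed (limma, 0% of 11537 genes at an adjusted p under 0.05, and 0.295% at an unadjusted p under 0.05, among them 0 of the 9). All 9 had a lower mean in R3-cKO than in R3-Cntl (52.5% of all genes), by -0.57 for Egr1 (95% interval -1.87 to 0.74) to -0.15 for Atf3 (-1.48 to 1.19), with a median of -0.29 against -0.01 over all genes. As 8 of these genes varied together across libraries (median pairwise r = 0.815), the 9 directions, here and in DZ, are not separate observations. With a library left out, the count at an unadjusted p under 0.05 ran from 0 to 4 of the 9 and from 0.105 to 10.5% of all genes, the latter without R3-cKO SFZ library 2. The 4 were Egr1, Fos, Junb and Ier2, all lower in R3-cKO, without R3-Cntl SFZ library 1, where Egr1 differed by -1.17, and Ier3 was the 1 without R3-cKO SFZ library 2. Every interval held 0, and leaving out 1 library turned the direction of Dusp1, Atf3 or Zfp36. Genotypes overlapped in all 10 genes, and 2.4% of all genes did not overlap.

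In DZ the means pointed the other way. None of the 9 passed (limma, 0% of 11091 genes at an adjusted and 3.64% at an unadjusted p under 0.05, among them 0 of the 9), and 8 of the 9 had a higher mean in R3-cKO (62.3% of all genes). The log2 difference was 1.02 for Dusp1 (SE 0.70, interval -0.66 to 2.71), 0.69 for Egr1 (SE 0.80), 0.47 for Jun (SE 0.34), 0.39 for Junb (SE 0.23), 0.31 for Fos (SE 0.51), 0.28 for Ier3, 0.21 for Zfp36 and 0.16 for Ier2, and -0.52 for Atf3 (SE 0.45), with a limma adjusted p of 0.999 for each. In the fit paired by number, 4 of 9 were at an unadjusted p under 0.05 (16.5% of all genes), Dusp1, Ier3 and Junb higher and Atf3 lower, with limma adjusted p from 0.204 to 0.276. Without R3-cKO DZ library 3, Dusp1 (1.76) and Junb (0.57) were at an unadjusted p under 0.05 in the unpaired fit (7.04% of all genes), and without R3-cKO DZ library 2 Dusp1 differed by 0.49. Egr1, Fos, Ier2 and Ier3 changed direction when 1 library was left out, R3-Cntl DZ library 1 for Egr1, either that library or R3-cKO DZ library 2 for Fos, and R3-cKO DZ library 2 for Ier2 and Ier3. Ratios of R3-cKO to R3-Cntl within the same number, which pairs these groups as well, were 3.45, 2.26 and 1.16 for Dusp1, 1.25, 1.35 and 1.09 for Ier3, 1.54, 1.54 and 1.01 for Junb and 1.31, 1.09 and 1.13 for Zfp36, and 0.722, 0.532 and 0.807 for Atf3. Those of Egr1 were 4.38, 1.34 and 0.922. Groups overlapped in all 10 genes (8.03% of all genes did not).

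The difference between these genotype effects was tested as an interaction over all 12 libraries. None of the 9 genes passed (limma, 0% of 11765 genes at an adjusted and 0.841% at an unadjusted p under 0.05, among them 0 of the 9). The term, DZ minus SFZ, was positive for 8 of 9 genes (59.2% of all genes), with a median of 0.77 against 0.05 over all genes. It was 1.26 for Egr1 (SE 1.07), 1.26 for Dusp1 (SE 1.16), 0.83 for Fos (SE 0.73), 0.80 for Junb (SE 0.53) and 0.77 for Jun (SE 0.63), and -0.37 for Atf3 (SE 0.78), with a limma adjusted p of 0.999 for each. With a library left out the term ran from 0.35 to 1.87 for Egr1 (without library 1 of R3-Cntl DZ and of R3-Cntl SFZ), from 0.59 to 2.06 for Dusp1 (without R3-cKO SFZ library 3 and library 2), from 0.40 to 1.27 for Fos (without R3-cKO DZ library 2 and R3-Cntl SFZ library 1), from 0.54 to 1.27 for Junb (without R3-Cntl SFZ library 2 and library 1), from 0.48 to 1.19 for Jun (without R3-cKO DZ library 2 and R3-cKO SFZ library 2) and from -0.86 to -0.013 for Atf3 (without R3-Cntl SFZ library 1 and R3-cKO SFZ library 1). Junb and Ier2 were at an unadjusted p under 0.05 without R3-Cntl SFZ library 1, and 0 of 9 without any other library. The zone and genotype comparisons share libraries, so their directions are not independent of each other. Nor are the directions of the single genes, most of which varied together across libraries.

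**Figure D5:**
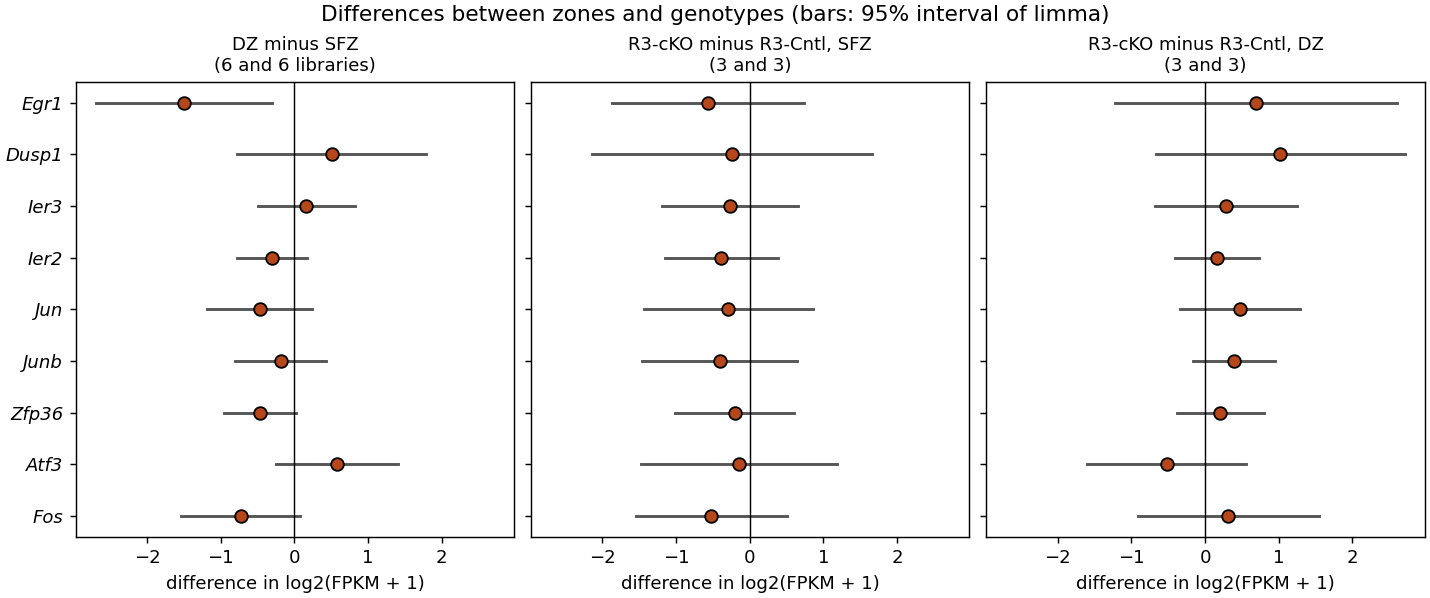
Points give the difference in log2(FPKM + 1) and bars its 95% interval for the 9 tested genes, between zones over both genotypes and between genotypes in each zone. Of these intervals, that of Egr1 between zones lies below 0 and all others cross 0.

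Other genes of the same pathways, from lists chosen by function, were compared between zones over both genotypes in the same fit, where 23.2% of all tested genes passed. Among 31 other immediate early genes 5 passed, a smaller share than that. 2 were higher in DZ, the matricellular gene Ctgf (log2 difference 1.22, limma adjusted p = 0.00505) and Trib1 (0.52, 0.04998), and 3 were lower, the transcription factors Klf4 (-0.78, 0.0235) and Egr2 (-0.70, 0.0439) and the small GTPase gene Rhob (-0.32, 0.0467). Among 10 other AP-1 subunits 4 passed, 1 higher, Batf3 (0.94), and 3 lower, among them Atf2 (-0.50) and Atf7 (-0.32). Jund (0.34, limma adjusted p = 0.0659), Fosl2 (-0.53, 0.0972) and Fosl1 (-1.11, 0.276) did not pass. Egr2 did not reach the filter of 1 FPKM in 3 libraries within DZ, nor Batf3 within SFZ. Their calls are therefore not independent of the filter. After quantile and size-factor scaling Ctgf, Trib1, Klf4, Batf3 and Atf2 passed in the same direction, Egr2, Rhob and Atf7 did not pass, and Jund (0.44 and 0.50) and Batf (0.78 and 0.63) passed as higher in DZ.

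Feedback genes of ERK signalling, the kinase pathway that induces Egr1 and Fos through SRF, were compared next. 5 of 9 tested genes passed, all lower in DZ (18.9% of all genes were called lower), namely the inhibitors Spry1 (log2 difference -1.997, limma adjusted p = 0.00102), Spry2 (-0.96), Spred2 (-0.87) and Spry4 (-0.83) and Etv4 (-0.84), an ETS transcription factor that the pathway induces, and 0 were higher. 4 of the 5 passed after quantile and after size-factor scaling, and Etv4 did not. Spry1, Spry4 and Etv4 did not reach the filter of 1 FPKM in 3 libraries within DZ. These 3 entered the test only with their SFZ values, so their lower call is not independent of the filter. Spry2 and Spred2 reached the filter in DZ too. Both listed relatives of Zfp36 were lower in DZ, Zfp36l2 by -1.40 (limma adjusted p = 0.00587) and Zfp36l1 by -0.55 (adjusted p = 0.0344), of which Zfp36l1 did not pass after either scaling (adjusted p = 0.159 and 0.132). Of 7 NF-kB response genes 1 was lower, the chemokine gene Ccl2 (-2.35, limma adjusted p = 0.00457), which also did not reach the filter within DZ. 0 of 13 heat shock genes, 0 of 8 integrated stress response genes and 0 of 7 genes of the SRF list passed in limma, with 4, 1 and 2 at an unadjusted p under 0.05 (37.1% of all genes). After quantile scaling Mkl2 of the SRF list (0.32), after size-factor scaling the stress response gene Ppp1r15a (0.86), and after both the NF-kB response gene Icam1 (0.65 and 0.57) passed as higher in DZ. The stress-inducible chaperones Hspa1a and Hspa1b stayed at 0.33 to 2.59 and 1.72 to 5.74 FPKM in all libraries. In R3-Cntl mice alone Ccl2 was the only gene of these lists that passed (-3.16, adjusted p = 0.0486), and between genotypes and in the interaction 0 genes of any list did.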

How the data were processed

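RNA-seq of 12 libraries was analysed, 3 for each zone and genotype. The authors sequenced 100-bp paired-end reads on a BGIseq-500 and mapped them to mm9; the submitters' processing notes name Bowtie 0.12.2. The deposited values, decimals without a stated unit, were taken as FPKM scaled by TMM by the authors. Counts were not used here, so that depth is unknown, and 0 columns were unmapped. The methods describe linear models on quantile-normalized log2 CPM.

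log2(FPKM + 1) was compared with limma 3.58.1 (R 4.3.3, trend, Benjamini-Hochberg adjustment) over genes that reached 1 FPKM in 3 or more of the fitted libraries, each comparison with its own libraries, and single genes by exact two-sided permutation tests. The fit was tested on simulated data. Differences are on this scale, which understates those of low genes such as Fos. Other lists name up to 5 genes past an adjusted p of 0.05 with the largest change, Jund, Fosl1, Fosl2, Batf, Mkl2, Icam1, Ppp1r15a, Hspa1a, Hspa1b and the muscle genes having been added after their values were seen. Tables, correlations and upstream sequence were made with Python 3.11.15, pandas 2.3.3, NumPy 2.4.6 and pysam 0.24.0, and sequence was read from the mm9 genome with GENCODE annotation. Results for some genes that these rules name are not reported here. The genes and lists were chosen with earlier results of these data known. Alternatives were other filters, pseudocounts (0.1, 5) and scalings, a replicate block, no trend, 1 model of all libraries and each library left out.

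Nothing in the labels says that libraries of 1 group come from separate mice, although a legend names individual littermates. If they do not, p-values measure technical spread. Whether equal numbers belong together was checked by correlating deviations from group means over 11359 genes. Same-number correlations were 0.418, 0.781 and 0.653 between zones in R3-cKO and 0.653, 0.781 and 0.687 between genotypes in DZ, so the numbers pair these groups. For zones in R3-Cntl (0.575, 0.111 and -0.151) and genotypes in SFZ (0.787, -0.094 and -0.415) they do not. In both, R3-Cntl SFZ libraries 2 and 3 correlated more with the crossed number. Library 2 had 0.38 with R3-Cntl DZ library 3 and 0.449 with R3-cKO SFZ library 3. Library 3 had 0.58 with R3-Cntl DZ library 2 and 0.688 with R3-cKO SFZ library 2. The reason was not tested.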

Additional observations from a re-analysis of the deposited data

How the results depend on the processing

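None of the tested genes passed in any comparison under other filters, pseudocounts, quantile or size-factor scaling, no trend or a single model of all libraries, and the replicate block and single libraries left out made the exceptions. All 10 genes were tested without a filter, 7 or 8 at a mean of 10 FPKM and 9 otherwise. With the replicate number as a block, 2 genes passed between zones in R3-Cntl (Fos and Egr1, both lower in DZ) and 4 over both genotypes, where limma gave an adjusted p of 0.00767 for Egr1, 0.0233 for Fos, 0.0132 for Zfp36 (lower in DZ) and 0.0141 for Atf3 (higher). The numbers do not pair all these groups, and not every library correlated best with its own number: among the R3-Cntl DZ libraries, R3-Cntl SFZ library 3 was closest to library 2 (0.58) and not to library 3 (-0.151). The block changed no other call of these genes, and in the interaction it put 6 of 9 at an unadjusted p under 0.05 (8.07% of all genes), all positive, with limma adjusted p from 0.577 to 0.603. With single libraries left out the number of genes called ranged from 0 to 1 between zones in R3-Cntl (Junb) and from 0 to 1 over both genotypes (Egr1).

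No change of direction concerned a gene that had passed. Between zones in R3-Cntl, quantile and size-factor scaling gave 0.0688 and 0.0604 for Dusp1 and 0.0723 and 0.0770 for Ier3, and in R3-cKO 0.0756 and 0.0950 for Ier2 and 0.0183 and 0.0360 for Jun. Leaving out single libraries gave ranges through 0 between zones for Dusp1 (-0.59 to 0.20) and Ier3 (-0.41 to 0.11) in R3-Cntl, for Atf3 (-0.0136 to 0.757), Ier2 (-0.23 to 0.20), Jun (-0.38 to 0.34) and Junb (-0.00396 to 0.438) in R3-cKO and for Ier3 over both genotypes (-0.0313 to 0.315). Between genotypes the ranges were -0.51 to 0.34 for Atf3, -1.04 to 0.43 for Dusp1 and -0.50 to 0.10 for Zfp36 in SFZ, and -0.21 to 1.25 for Egr1, -0.12 to 0.73 for Fos, -0.0336 to 0.350 for Ier2 and -0.0860 to 0.585 for Ier3 in DZ. The cause of these changes was not tested.

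Over all genes the count past the threshold between zones in R3-Cntl, 140, became 0 without a filter, 8 at a mean of 10 FPKM, 88 and 29 with pseudocounts of 0.1 and 5, 1 and 17 after quantile and size-factor scaling, 831 with the block, 798 in a single model and 0 to 505 with a library left out. In R3-cKO the count of 2 became 352 with the block and 165 in a single model. Over both genotypes 2725 became 1162 at a mean of 10 FPKM and 1624 without R3-Cntl SFZ library 2, and the 506 higher and 2219 lower genes became 1237 and 915 after quantile and 1053 and 1088 after size-factor scaling.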
